A study of Mus musculus with 4 samples.

Results

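The genes described here are 34 mouse genes that build and drive the mitotic spindle, copy the centrosome or cut the dividing cell apart: mitotic kinesins, spindle kinases and assembly factors, centriole genes and genes of the central spindle and midbody. They were found by gene symbol, through the platform's probe-to-gene table; the list was drawn up with earlier results of these data known. All 34 are on the array, with 82 of the 34945 probe sets that name 1 gene. Of the 34, 32 passed the filter on low signals among 12650 of 18193 genes; Kif14 and Kif15 lay below it.

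Expression was measured on 4 Affymetrix 3′ arrays with RNA of untreated IgA-positive cells, freshly isolated from small intestine. The mice were Balb/c females aged 9 weeks, labelled WT in the sample titles. All 4 samples are IgA-positive; 2 are CD11b-negative and 2 CD11b-positive, CD11b being the integrin chain encoded by Itgam. One-Cycle labelling of 1 µg of RNA served 1 array of each fraction, and the 3′ IVT Express kit with 0.1 µg served the other of each, so kit and RNA amount cannot be told apart. The labels state neither how many animals were pooled nor the purity of the sort, and they do not say whether the 2 arrays of a fraction stem from different animals. The p-values therefore rest on the spread of these 4 samples alone, and part or all of that spread may be technical.

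A dividing cell sorts its chromosomes on a spindle of microtubules that grows from a pair of centrosomes. Motor proteins of the kinesin family push the poles apart, carry and align chromosomes and trim microtubule ends, while kinases such as Aurora A and Polo-like kinase switch spindle assembly on. After anaphase, other kinesins bundle the midzone microtubules, a RhoA-driven ring constricts, and the midbody is cut. Most of these genes are transcribed chiefly in the G2 phase and mitosis, and mature plasma cells, the usual IgA producers of the gut, have left the cell cycle.

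The 4 arrays had deposited trimmed mean signals of 48.6 to 90.3, so signals were quantile-normalized, and differences are on the log2(signal + 3) scale. Itgam had 28.3 and 15.8 without CD11b and 189 and 109 with it (One-Cycle first), as the sort labels have it. The 12 plasma cell markers summed to 62141 and 63413 without CD11b and 59020 and 60170 with it. Those sums rest mostly on the brightest genes, whose values quantile normalization sets by rank. Igha and Jchain, for example, both hold the values 11010 and 12633, on different arrays. Near-equal sums therefore cannot show that the fractions hold equal shares of plasma cells. Epithelial markers summed to 6527 and 6549 against 3647 and 2598, and T cell, NK and innate lymphoid markers to 5550 and 2065 against 2772 and 1423, again with One-Cycle first.

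The members stood higher in the CD11b-positive fraction with both kits for 26 of the 32 that passed the filter, and lower with both kits for 0. Among all genes tested, 31.6% were higher and 30.5% lower with both kits. With all 34 members and no filter, 27 were higher and 0 lower with both kits, against 29.3% and 29.4% of all genes. Kif20a is among the 26, and among the 21 and the 9 given below, although it passed the filter only through its CD11b-positive arrays. For 21 of the 32 both CD11b-positive arrays lay above both CD11b-negative ones and for 0 below, against 18.1% and 17.3% of all genes tested. The median log2 difference of the 32 was 0.86 (quartiles 0.65 and 1.22), at 1.00 with the One-Cycle and 0.76 with the 3′ IVT Express kit; over all genes tested it was 0.00. At least 2-fold with both kits, 9 members were higher, against 0.877% of all genes. The members are not replicates of a condition, and the count and median describe the list. In bulk RNA, more dividing cells and more RNA per dividing cell cannot be told apart.

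In limma without a block, 0 members passed at a Benjamini-Hochberg adjusted p under 0.05, and 0.00% of genes passed in either direction. The smallest member value was 0.480, for Cep55. At an unadjusted p under 0.05, 19 members were higher and 0 lower, against 3.05% and 3.63% of genes. Kif20a, which passed the filter only through its CD11b-positive arrays, is among the 19. With no low-signal filter, 18 of 34 were higher and 0 lower, against 548 and 598 of 18193 genes. With the labelling kit as a block, 18 of 32 members passed as higher and 0 as lower, against 4.41% and 4.69% of genes; without the low-signal filter the blocked fit called 14 of 34 as higher and 0 as lower, against 1.73% and 2.03% of genes. Adjusted p-values marked "with the block" below come from that limma fit, which has 1 residual degree of freedom per gene and takes most of its error from a trend shared by all genes. Each standard error (SE) below comes from the fit without the block. An SE and an adjusted p printed side by side therefore belong to different fits.

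The signals of these genes also differed between the kits. Members were lower on the 3′ IVT Express than on the One-Cycle array by a median log2 value of -0.36 in each fraction, where all genes tested gave 0.01 in the CD11b-negative and 0.03 in the CD11b-positive fraction. That kit difference enters the error of the fit without the block.

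**Figure D1:**
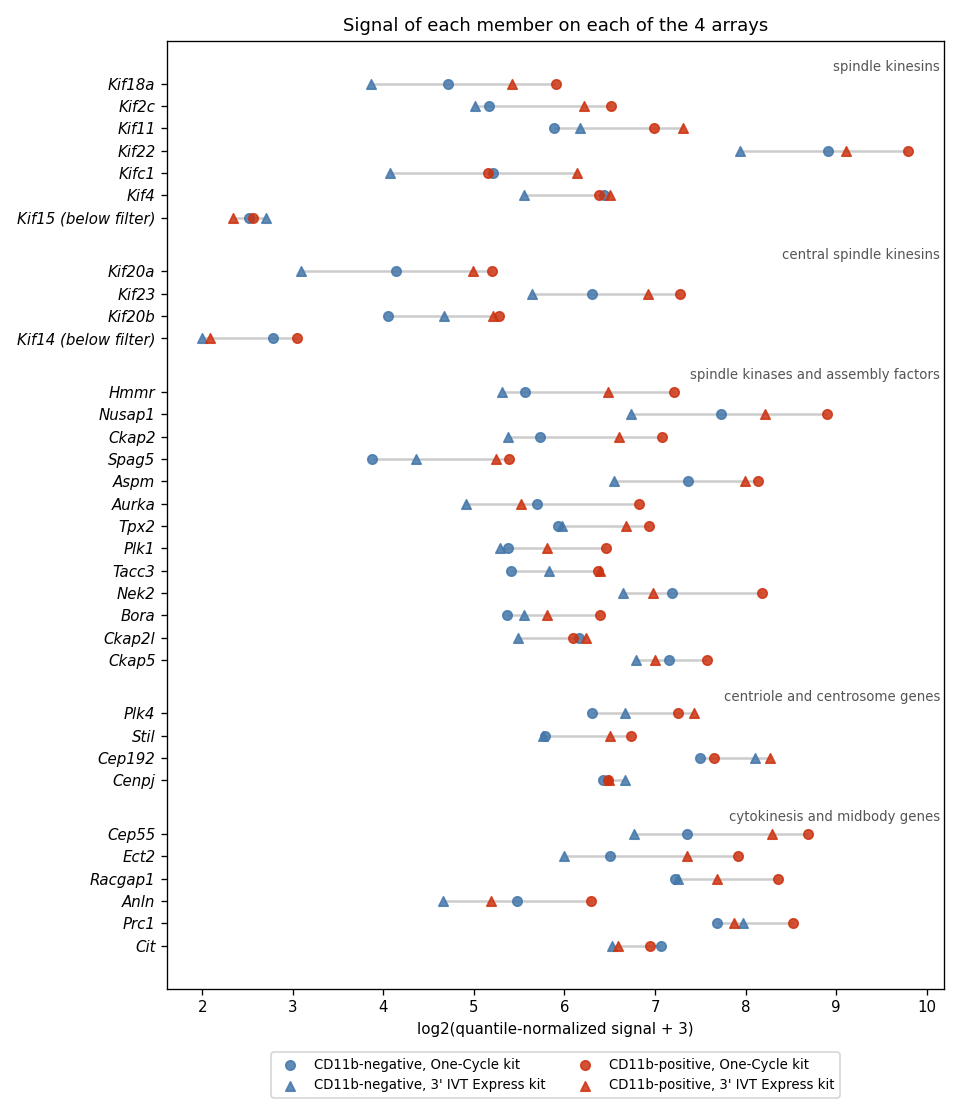
Each row is a member, grouped by role, and each point is its log2(quantile-normalized signal + 3) on 1 of the 4 arrays, with colour for the fraction and shape for the labelling kit. For 21 of the 32 members above the filter both CD11b-positive arrays lie above both CD11b-negative arrays, and for 0 the reverse holds.

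Promoter sequences are shown because many genes of this class share short motifs there. In genes that peak in G2 and mitosis, a cell cycle genes homology region (CHR, letters TTTGAA) close to the start of transcription, often beside CCAAT boxes, is a known feature. RefSeq promoter windows (GRCm38.p6, 250 bases before the start) were at hand for 30 members in 33 windows; Bora, Cep192, Kif20a and Tpx2 had no entry. TTTGAA on either strand lay in 12 of the 33 windows (36.4%), against 16% of all 32851 windows and 10.8% of those of the genes tested. CCAAT on either strand lay in 21 windows (63.6%), against 33.8% and 34.6%, and both motifs together in 9 (27.3%), against 5.55% and 3.77%. Windows of a gene can overlap and hold the same site, as for Ect2. Counted by gene, TTTGAA lay in 11 of 30 members (36.7%), against 18.3% of all genes with a window and 12.9% of those tested. By gene CCAAT lay in 19 (63.3%), against 37.5% and 39.6%, and both in a window in 8 (26.7%), against 6.45% and 4.59%. The variant TTCGAA, which reads the same on both strands, lay in 0 member windows and 1.34% of all. Matches of different motifs can share at most 1 base, and a match describes the letters only.

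Below are the last 100 bases before the start for the members with a single window that held TTTGAA there, and for Hmmr, whose window held the most CCAAT boxes (5, of which 3 are in the stretch). Capitals mark TTTGAA or its reverse complement TTCAAA, and CCAAT or its reverse complement ATTGG. All read 5′ to 3′ on the gene's own strand.
Kif11, chr19:37376282-37376381, plus strand: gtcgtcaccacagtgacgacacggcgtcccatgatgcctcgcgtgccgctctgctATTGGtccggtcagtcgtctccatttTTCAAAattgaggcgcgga
Kif22, chr7:127042421-127042520, minus strand: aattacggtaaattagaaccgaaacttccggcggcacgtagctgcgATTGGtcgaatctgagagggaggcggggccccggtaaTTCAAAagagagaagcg
Kif15, chr9:122950981-122951080, plus strand: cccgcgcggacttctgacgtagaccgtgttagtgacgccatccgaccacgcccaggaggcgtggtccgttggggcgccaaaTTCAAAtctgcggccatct
Ckap2l, chr2:129297213-129297312, minus strand: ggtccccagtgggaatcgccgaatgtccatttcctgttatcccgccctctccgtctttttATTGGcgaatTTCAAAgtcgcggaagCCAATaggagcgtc
Ckap5, chr2:91526662-91526761, plus strand: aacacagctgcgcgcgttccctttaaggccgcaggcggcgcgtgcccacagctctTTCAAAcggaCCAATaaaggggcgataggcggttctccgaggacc
Hmmr, chr11:40733438-40733537, minus strand: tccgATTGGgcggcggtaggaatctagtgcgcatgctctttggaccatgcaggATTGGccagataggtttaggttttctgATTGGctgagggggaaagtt

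Members with and without the motif covered overlapping ranges of differences. The 9 tested members with TTTGAA in a window had a median log2 difference of 1.12, from 0.32 for Ckap5 to 1.43 for Cep55, and the 19 without it 0.85, from -0.06 to 1.41 for Hmmr. With a CCAAT box the median was 0.93 over 18 members, and without one 0.87 over 10. The medians lie well within the range of both sets, and no test was made. Of the genes printed above, Kif11, Kif22 and Hmmr had log2 differences of 1.12, 1.03 and 1.41, Ckap5 and Ckap2l had 0.32 and 0.34, and Kif15 lay below the filter.

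Of the 7 spindle kinesins 6 passed the filter, 4 were higher with both kits and those 4 passed with the block. Among all genes tested, 31.6% were higher with both kits and 4.41% passed as higher with the block. Kif11, the motor that pushes the spindle poles apart, had signals of 56.2 and 69.0 without CD11b and 124 and 155 with it (One-Cycle first, as in all pairs below). Both CD11b-positive arrays lay above both CD11b-negative ones, and the 2.17-fold difference (log2 1.12, SE 0.26) was the same to within a few percent in both kits, at 2.15-fold and 2.20-fold (adjusted p = 5.5e-05 with the block). Kif2c, which takes microtubules apart at their ends and corrects wrong attachments, had 32.9 and 29.3 against 88.7 and 71.3. Its nearest arrays were 2.07-fold apart, which made it the 1 member to reach a gap of 2-fold between the fractions (0.356% of all genes did so). That count was 0 after cyclic loess and 14 on the signals as deposited. On the means Kif2c was 2.43-fold higher (log2 1.28, SE 0.28, adjusted p = 0.000556 with the block). The probe set used is of the kind that can cross-hybridise. The next brightest had 45.8 and 23.4 against 65.7 and 47.7, only 1.04-fold apart at the nearest arrays (log2 0.72, adjusted p = 0.156 with the block).

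Kif18a, which dampens chromosome movement at the metaphase plate, had 23.3 and 11.6 without CD11b and 56.9 and 39.7 with it, without overlap. The difference was 2.58-fold (log2 1.37, SE 0.42, adjusted p = 0.00923 with the block). Kif22, a chromosome-bound kinesin, had 476 and 243 against 888 and 549. Its fractions did not overlap, but the lower CD11b-positive array was only 1.15-fold above the higher CD11b-negative one, and in each fraction the One-Cycle array was the brighter. It was 2.04-fold higher on the means (log2 1.03, SE 0.37, adjusted p = 1.55e-09 with the block). Leaving out CD11b-negative replicate 2 gave log2 0.55, and leaving out CD11b-positive replicate 1 gave 0.69.

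The remaining spindle kinesins did not separate the fractions. Kif4, a chromokinesin that also works at the midzone, had 83.8 and 80.4 with the One-Cycle kit and 44.0 and 87.9 with the 3′ IVT Express kit (CD11b-negative first). The kits thus disagreed, at log2 -0.06 and 0.95, and Kif4 did not pass with the block (adjusted p = 0.297). Kifc1, the minus-end-directed motor that focuses poles, disagreed even more, at log2 -0.06 and 2.06, with 34.03 and 32.6 in the One-Cycle pair and 13.9 and 67.5 in the 3′ IVT Express pair (adjusted p = 0.0773 with the block). Its single probe set is of the kind shared by several transcripts, and the mouse genome holds the close relative Kifc5b, so its signal may not be its own. Kif15, which helps Kif11 hold poles apart, was near the bottom of the signal range in all 4 arrays, from 2.05 to 3.52, and no fold is given.

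Among the 4 central spindle kinesins, 3 passed the filter, of which Kif23 passed with the block (4.41% of all genes tested passed as higher). With no filter, all 4 were higher with both kits, against 29.3% of all genes. For Kif14 that direction rests on signals below the filter, with overlapping fractions. Kif23, the motor subunit of centralspindlin, had 76.2 and 47.1 without CD11b and 152 and 118 with it. The fractions did not overlap, and the difference was 2.18-fold (log2 1.12, SE 0.31, adjusted p = 7.3e-05 with the block). Kif20a, which brings the chromosomal passenger complex to the midzone, had 14.6 and 5.52 against 33.8 and 28.7, without overlap. Its CD11b-negative mean of 10.05 lay below the filter at a signal of 10.6, so it passed only through the CD11b-positive arrays, and neither a fold nor a test is given. Kif20b, a kinesin of the late midzone, had 13.6 and 22.5 against 35.9 and 33.96, a 1.84-fold difference (log2 0.88) that did not pass (adjusted p = 0.194 with the block) and was log2 0.57 without CD11b-negative replicate 1. Kif14, which recruits citron kinase, ranged from 1.01 to 5.29 and could not be assessed.

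The 13 spindle kinases and assembly factors all passed the filter, 12 were higher with both kits and 8 passed with the block. Over all genes tested the shares were 31.6% and, as higher with the block, 4.41%. Nusap1, which stabilises and cross-links spindle microtubules, had 209 and 103 without CD11b and 475 and 295 with it. It was 2.51-fold higher (log2 1.33, SE 0.39, adjusted p = 3.31e-10 with the block), with 0.83 left on the log2 scale without CD11b-negative replicate 2. Hmmr, an adaptor of TPX2 and Aurora A at the poles and also a hyaluronan receptor, had 44.4 and 36.7 against 145 and 86.2. The fractions were apart for Hmmr by 1.88-fold at the nearest arrays and by 2.65-fold on the means (log2 1.41, SE 0.33, adjusted p = 1.07e-05 with the block).

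Ckap2, a microtubule nucleation factor of the spindle, was likewise clear of overlap, at 50.2 and 38.4 against 132 and 94.4. That is 2.44-fold (log2 1.29, SE 0.29, adjusted p = 3.62e-05 with the block). Aspm, which gathers microtubule minus ends at the poles and is mutated in microcephaly, had 162 and 90.3 without CD11b and 278 and 252 with it. It was 2.15-fold higher (log2 1.11, SE 0.31, adjusted p = 1.05e-06 with the block), at log2 0.70 without CD11b-negative replicate 2. Tpx2, the activator of Aurora A, had 57.8 and 60.0 against 119 and 99.2, so the CD11b-negative arrays nearly coincided. The Tpx2 difference was 1.81-fold (log2 0.85, SE 0.25, adjusted p = 0.00587 with the block).

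The kinases themselves differed less evenly. Aurka, Aurora A kinase, had 49.0 and 110.0 with the One-Cycle kit and 27.1 and 42.7 with the 3′ IVT Express kit (CD11b-negative first). Each kit alone put the CD11b-positive array higher, yet the fractions overlapped, since the CD11b-positive array of the 3′ IVT Express kit lay below the CD11b-negative array of the other. Its adjusted p was 0.0328 with the block, and its log2 difference of 0.86 (SE 0.49) depended on the arrays: it was 0.21 when CD11b-positive replicate 1 was left out, 0.47 when CD11b-negative replicate 2 was, and 1.51 when CD11b-positive replicate 2 was. Nek2, a centrosome-splitting kinase, showed the same overlap, with 143 and 287 in the One-Cycle and 96.9 and 123 in the 3′ IVT Express pair. It passed with the block (log2 0.66, SE 0.42, adjusted p = 0.00888), but the same omissions, in the same order, gave log2 differences of 0.06, 0.39 and 1.26. The Nek2 probe set used is of the kind shared by several transcripts. The next brightest had log2 differences of -0.03 and 1.48 in the kits (adjusted p = 0.211 with the block).

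Plk1, Polo-like kinase, had 38.7 and 36.1 without CD11b and 84.9 and 52.9 with it. The arrays did not overlap; the 1.74-fold difference (log2 0.80, SE 0.32) did not pass with the block (adjusted p = 0.0555), and was log2 0.47 without CD11b-positive replicate 1. Bora, which helps Aurora A activate Polo-like kinase, had 38.1 and 44.1 against 80.7 and 53.0, with log2 differences of 1.03 and 0.25 in the kits (adjusted p = 0.153 with the block); its mean of 0.64 became 0.35 without CD11b-positive replicate 1. Tacc3, which with Ckap5 and clathrin bridges spindle fibres, had 39.5 and 53.7 against 79.5 and 80.9 and passed with the block (1.69-fold, log2 0.76, SE 0.28, adjusted p = 0.0405). Its next brightest probe set, of the kind that can cross-hybridise, had log2 0.95 (adjusted p = 0.0357 with the block). Without probe sets that may cross-hybridise or be shared by several transcripts, only a dimmer Tacc3 set remained, at 14.2 and 12.2 against 43.5 and 5.60. That set had a mean log2 difference of 0.31, and its kits disagreed, at 1.43 and -0.82. Ckap5, its microtubule polymerase partner, had 139 and 108 against 187 and 125, overlapping, and did not pass (log2 0.32, adjusted p = 0.339 with the block), with a range of 0.03 to 0.60 on leaving out 1 array. Spag5, or astrin, had 11.7 and 17.6 against 38.9 and 34.9; the arrays were clear of each other, but the call was missed at low signal (adjusted p = 0.0603 with the block). Ckap2l, a spindle-pole relative of Ckap2, was higher with the 3′ IVT Express kit alone (log2 0.75, against -0.07 with the One-Cycle kit).

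Among the 4 centriole and centrosome genes, 3 were higher with both kits and 2 passed with the block. Over all genes tested the shares were 31.6% and, as higher with the block, 4.41%. Plk4, the kinase that starts centriole duplication, had 76.2 and 98.4 without CD11b and 149 and 169 with it. Stil, its partner in building the new centriole, had 52.1 and 51.3 against 103 and 87.5. Neither overlapped between the fractions, and they were 1.81-fold (log2 0.85, SE 0.25) and 1.79-fold (log2 0.84, SE 0.25) higher, with adjusted p-values of 0.000983 and 0.0112 with the block. Cenpj, which sets centriole length, had 83.0 and 98.9 against 86.4 and 87.2, a log2 difference of -0.06 (SE 0.24). Cep192, the scaffold on which the mitotic centrosome matures, had 177 and 272 against 198 and 305. Both kits put Cep192 slightly higher in the CD11b-positive array, at log2 0.16 and 0.17, while the kits themselves differed more than the fractions. With 2 arrays a fraction, missing the threshold does not show equal expression.

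For cytokinesis and midbody genes, 4 of 6 were higher with both kits and 3 passed with the block. Over all genes tested the shares were 31.6% and, as higher with the block, 4.41%. Cep55, which docks the abscission machinery at the midbody, had 161 and 106 without CD11b and 409 and 311 with it. The lower CD11b-positive array was 1.92-fold above the higher CD11b-negative one, and the mean difference was log2 1.43 (SE 0.28, adjusted p = 5.87e-11 with the block). Ect2, the exchange factor that switches on RhoA at the cell equator, had 87.5 and 60.7 against 239 and 161, also without overlap. It was 2.63-fold higher (log2 1.39, SE 0.30, adjusted p = 4.69e-08 with the block), with 1.42 and 1.36 on the log2 scale in the kits.

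Racgap1, the other centralspindlin subunit and the docking site of Ect2, had 146 and 149 against 326 and 202. The CD11b-negative arrays nearly coincided, and the difference was 1.73-fold (log2 0.79, SE 0.28, adjusted p = 0.000416 with the block), or log2 0.45 without CD11b-positive replicate 1. Anln, the anillin scaffold of the contractile ring, had 41.5 and 22.3 against 75.6 and 33.4, higher in each kit but overlapping between kits (log2 0.67, adjusted p = 0.196 with the block). Leaving out CD11b-positive replicate 1 gave log2 0.12, CD11b-negative replicate 2 gave 0.27, CD11b-negative replicate 1 gave 1.08 and CD11b-positive replicate 2 gave 1.23. Prc1, the bundler of antiparallel midzone microtubules, was higher with the One-Cycle kit (203 and 365, CD11b-negative first) and slightly lower with the 3′ IVT Express kit (248 and 230.5); its mean log2 difference of 0.37 became 0.04 without CD11b-positive replicate 1 and 0.69 without CD11b-positive replicate 2. Cit, citron kinase of the midbody, had 131 and 88.9 against 120 and 93.2 and a log2 difference of -0.02 (SE 0.29).

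**Figure D2:**
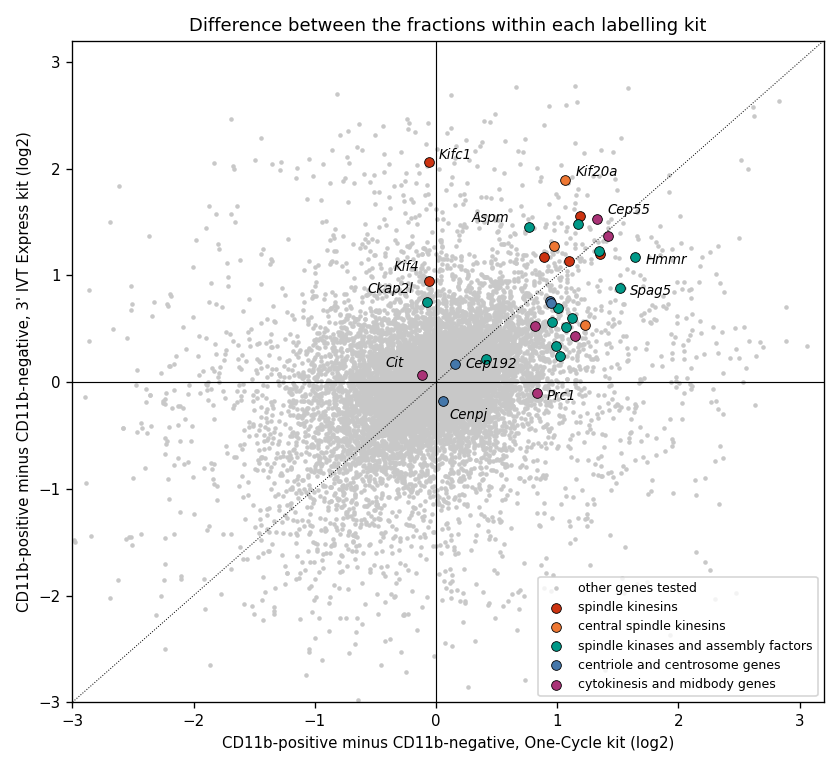
Each point is a gene, with the log2 difference between the CD11b-positive and CD11b-negative array of the One-Cycle kit on the horizontal and that of the 3′ IVT Express kit on the vertical axis; members are coloured by role, grey points are all genes tested, 7 of which lie outside the axes, and the dotted line marks equal differences. In the plot, 26 of 32 members sit in the upper right part, Kif4, Kifc1, Ckap2l and Cit just left of the vertical line, and Prc1 and Cenpj just under the horizontal one.

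Median differences by role and kit are given as a description. Spindle kinesins had a median log2 difference of 1.00 with the One-Cycle and 1.18 with the 3′ IVT Express kit. Of the central spindle kinesins, Kif23 had 0.97 and 1.27 and Kif20b 1.23 and 0.53. For spindle kinases and assembly factors the order was turned, at 1.03 and 0.70, and 10 of the 13 were larger with the One-Cycle kit. Cytokinesis genes gave 0.99 and 0.48, and centriole genes 0.55 and 0.45. Differences between the roles were not tested, and each role has few genes.

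Other probe sets of the same genes were a further reading of the same 4 RNAs. Of the 82 probe sets of members, 67 were above the filter: 53 were higher with both kits, 0 lower with both, and 14 differed in direction between the kits, where 32.9% of all probe sets tested were higher and 28.0% lower with both kits. With no filter, 62 of the 82 were higher and 0 lower with both kits, against 30.1% and 27.3% of all 34945 probe sets. Of the 67, 6 passed only through their CD11b-positive arrays (1 each of Kif20a, Kif23, Spag5, Aspm, Cep55 and Cit), so the filter itself favours a difference there. Counting only the 35 that were not the brightest of their gene, 27 were higher with both kits. The 27 include those of Kif23, Spag5, Aspm, Cep55 and Cit that passed only through their CD11b-positive arrays. When every probe set was fitted on its own, 0 member probe sets passed in limma without a block, and 24 of 67 passed as higher with the block, against 2.85% of all probe sets. Among the 24 are the sets of Aspm and Cit that the filter kept only through their CD11b-positive arrays. Of the 19 members with several probe sets above the filter, 14 had them all higher on average. The share over all genes was not counted for this rule. The 14 include Kif23, Spag5 and Cep55, each with a set that passed only through its CD11b-positive arrays.

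Probe set choice mattered most for Cit. Its brightest probe set, of the kind that can cross-hybridise, showed no difference, while a second had 26.9 and 16.7 without CD11b and 43.7 and 39.7 with it (log2 0.88). Another had 2.59 and 4.10 against 27.2 and 27.0, with the CD11b-negative signals below the filter, and is given as values only. Prc1 also had a second probe set, at 98.5 and 75.4 against 192 and 124, higher with both kits (log2 0.82, adjusted p = 0.00915 with the block). For Aspm, the probe sets with both fractions above the filter ran from log2 -0.27 to 1.11; the pair with a negative mean had signals between 3.34 and 33.5. Nek2, Tpx2 and Ckap5 each had 1 probe set with a negative mean, at log2 -0.07, -0.12 and -0.17. All 3 probe sets of Plk4 and all 3 of Kif22 were higher with both kits, the Kif22 ones by log2 1.03, 1.74 and 1.43. The 4 of Kif2c ran from 0.05 to 1.28, and the 3 of Kif11 from 0.35 to 1.12. The lowest of Kif11 had overlapping fractions, at 59.3 and 21.0 against 91.5 and 22.8, with 1.52-fold and 1.07-fold differences in the kits. With the mean of all probe sets in place of the brightest, the log2 differences were 0.65 for Kif2c, 0.76 for Nusap1, 0.62 for Aspm, 0.45 for Aurka, 0.39 for Nek2 and 0.28 for Anln, each over 1.5 times smaller and each still above 0. That mean takes in probe sets below the filter. For Nusap1, Aurka and Anln the only other probe set was such a weak one.

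**Figure D3:**
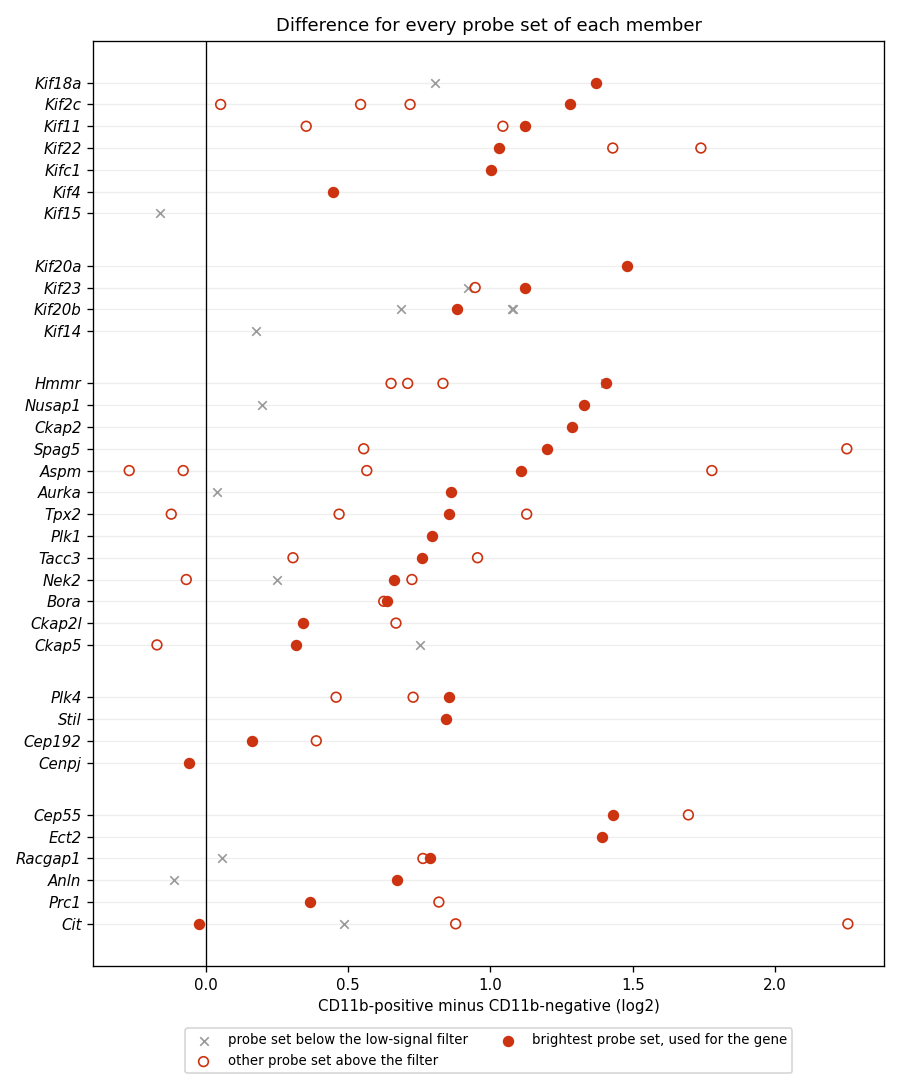
Each row is a member and each symbol 1 of its probe sets, placed by the log2 difference between the fractions; filled circles are the probe sets used for the gene, open circles others above the filter, and crosses those below it. Most circles lie right of 0, and Cit has its filled circle at -0.02 and an open one at 0.88; 6 of the circles passed the filter only through the CD11b-positive arrays, among them the outermost one of Cit.

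Genes that work beside the members give the setting. Of all genes tested, 31.6% were higher and 30.5% lower with both kits, and 4.41% passed as higher with the block. The chromosomal passenger complex (Aurkb, Incenp, Birc5 and Cdca8), which guides chromosome attachment and then the midzone, was higher with both kits for 4 of 4 genes, all 4 of which passed with the block; its median log2 difference was 1.19. Kinesins of membrane and organelle transport served as the contrast, in a list that also holds some of their accessory subunits. Of its genes, 1 of 20 tested was higher and 3 lower with both kits, and the median was -0.05. In limma 0 of them passed with or without the block, and 0 reached an unadjusted p under 0.05 without it. Across the gamma-tubulin ring and augmin, which nucleate spindle microtubules, 8 of 18 were higher and 3 lower with both kits. Of the 8, 1 passed the low-signal filter only through its CD11b-positive arrays. With the block 3 passed as higher, among them Tubg1, gamma-tubulin itself (83.9 and 41.4 against 119 and 125, adjusted p = 0.000947).

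Further centriole and centrosome genes had a median of 0.26 over 23, with 13 higher and 3 lower with both kits, and Cetn2 was the 1 that passed with the block (1.37-fold, adjusted p = 0.0333). Of the 13, 1 passed the low-signal filter only through its CD11b-positive arrays. Other spindle genes had a median of 0.02 over 26 and 6 that passed as higher, including Kpna2, an importin of spindle factors (1.89-fold, adjusted p = 9.15e-08), and Dlgap5, a microtubule stabiliser of the kinetochore fibres (2.13-fold, adjusted p = 0.0232), both with the block. Contractile ring and abscission genes, most of which also serve cells that do not divide, had a median of 0.04 over 26. With both kits 11 were higher and 7 lower, and 0 passed with the block. At an unadjusted p under 0.05 without it, 1 was higher and 0 lower. The 1 was Diaph3, which passed the low-signal filter only through its CD11b-positive arrays. Tubulins had a median of 0.09 over 10, and Tubb5, a widely expressed beta-tubulin, was 1.72-fold higher (896 and 667 against 1514 and 1166, adjusted p = 2.94e-08 with the block). Among all genes tested, 31.6% were higher and 30.5% lower with both kits, and 4.41% passed as higher with the block. These lists are set beside the members by their counts and medians alone.

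Markers of other cells moved with the fractions too, some of which divide in the gut. Over all genes tested, 30.5% were lower and 31.6% higher with both kits, and 4.69% passed as lower and 4.41% as higher with the block. Of 14 epithelial markers 13 were lower in the CD11b-positive array with both kits, with a median of -1.23, and 12 passed as lower with the block. Genes listed as crypt progenitor markers, not all limited to dividing cells, were lower with both kits for 5 of 6 tested and higher for 0. Of the 5, 1 passed the filter only through its CD11b-negative arrays. The list summed to 759.8 and 515 without CD11b and 328 and 175 with it, with Ascl2 and Cdx1 below the filter. Olfm4 and Cdx2 passed as lower with the block. Among 10 T cell, NK and innate lymphoid markers 6 were lower and 1 higher with both kits, and 7 passed as lower with the block, among them Nkg7, Cd8a and Ccl5. The 1 higher passed the filter only through its CD11b-positive arrays. Macrophage, monocyte and dendritic cell markers summed to 494 and 452 against 754 and 580, with 5 of 12 tested higher and 2 lower with both kits and Cx3cr1 below the filter; Itgax and C1qb passed as higher with the block (adjusted p = 0.00529 and 0.035). Mature and germinal centre B cell markers summed to 575 and 412 against 371 and 432, with 1 of 10 higher and 4 lower with both kits and 0 passed with the block (0 higher and 1 lower at an unadjusted p under 0.05 without it). The 1 lower at that threshold was Mef2b, which passed the filter only through its CD11b-negative arrays. Granulocyte and mast cell markers summed to 378 and 256 against 296 and 194, with 1 of 6 tested higher and 3 lower with both kits and Epx, S100a8, S100a9 and Siglecf below the filter, and Prg2 passed as lower with the block. Plasma cell markers were lower with both kits for 9 of 12 and higher for 2, with a median of -0.08; with the block Sdc1 passed as lower and Eaf2 as higher. Stromal markers had a median of -0.04 over 6 tested, with Des, Pdgfra and Pdgfrb below the filter, and red cell and platelet markers -0.11 over 2. The part of all these cells in the member differences was not tested.

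**Figure D4:**
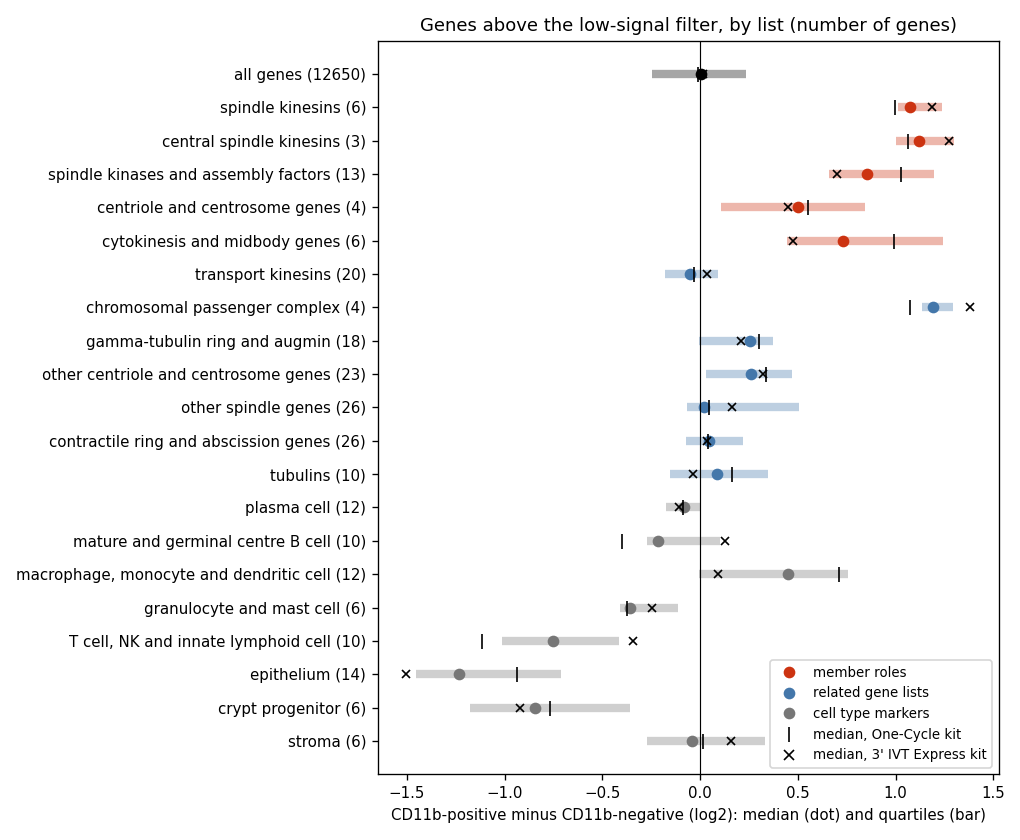
Each row is a group of genes above the low-signal filter, with its number of genes in brackets; the dot is the median log2 difference between the fractions, the bar its quartiles, and the tick and cross the medians within the One-Cycle and 3′ IVT Express kits. Member roles lie between 0.50 and 1.12, the central spindle row including Kif20a, transport kinesins at -0.05 and epithelial markers at -1.23.

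Scaling of the arrays changed the size of the differences and few directions. On the signals as deposited all genes shifted by 0.42 (log2) towards the CD11b-positive fraction, and 32 of 32 members were then higher with both kits, against 66.1% of all genes. After centring on the median that shift was 0.21, with 32 of 32 members and 52.0% of genes. Cenpj and Cit, the members with a negative difference, turned positive under these 2 scalings. Relative to all genes Cenpj stayed between -0.08 and -0.06 under every alternative run on all 4 arrays. Relative to all genes, the member median lay between 0.83 and 0.86 under all 5 scalings tried.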

How the data were processed

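The deposited intensity values, 1 MAS5 signal for each probe set, are linear; the submitters' processing notes name MAS5 and Affymetrix Expression Console, and for software versions and the scaling target the sources used here give nothing. From them, 64 control probe sets were dropped, the other 45037 quantile-normalized, and 3 added before taking log2, which understates folds of weak genes. Symbols came from the platform table; a gene took its brightest probe set among those naming 1 gene, and genes above the 40th percentile of mean signal (10.6) were tested. The planned fit was lmFit with trended eBayes (limma 3.58.1, R 4.3.3; 2-sided, Benjamini-Hochberg over 12650 genes) without a block; the test code was tried on simulated data first. For 2 arrays against 2, exact permutation reaches no p below 0.333. The labelling protocols in the labels pair the arrays by kit, and deviations from the fraction means correlated within kits (r = 0.385 across 12650 genes), so a fit with kit as a block stands beside it. Alternatives covered pseudocount, scaling, filter, probe set choice, block, trend and leaving out each array. Members and lists were chosen with earlier results of these data known. The naming rule took all 34 members, Itgam and up to 3 genes of each other list by smallest p; other genes of the passenger complex are named as its members. Promoters are RefSeq's (GRCm38.p6), searched by exact letters on both strands. A planned comparison of protein sequences was not made. So few arrays limit the precision.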

Additional observations from a re-analysis of the deposited data

How the results depend on the processing

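Pairing the arrays by kit, as a replicate block, called 1151 genes in place of 0 and 18 members in place of 0. Without 1 array, the counts called by limma ran from 0 to 25 over all genes (25 without CD11b-positive replicate 1) and stayed at 0 for the members. The median log2 difference of the members was 1.25 on the signals as deposited, 1.03 after centring on the median, and 0.75 to 1.13 on leaving out 1 array. The count of members whose nearest arrays lay at least 2-fold apart was 1; it was 0 with a pseudocount of 12, 0 with a common trimmed mean, 0 after cyclic loess, 14 as deposited, 9 after centring, and 2 to 12 without 1 array. Cenpj turned to 0.36 as deposited and 0.14 after centring, and ran from -0.18 to 0.062 without 1 array. Cit turned to 0.43 as deposited, 0.21 after centring, 0.90 with the mean of all probe sets and 0.88 without those that may cross-hybridise, and ran from -0.29 to 0.24 without 1 array. Cep192 ran from -0.15 to 0.47 without 1 array. The tested members other than Cenpj, Cit and Cep192 kept their direction under every alternative that kept them, but leaving out 1 array left the kits uneven between the fractions and moved 8 to 14 of the 32 by over 1.5 times.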
